A study of Mus musculus with 16 samples.

Results

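Glyceroneogenesis and ketone body enzymes were followed through 9 genes, Pck1, Pck2, Pcx, Gpd1, Gpd2, Aqp7, Bdh1, Oxct1 and Acat1, taken by symbol from a count table of 20295 genes. Every one of the 9 was in the table, and 8 of them passed the filter on low counts that left 12786 genes for testing. The exception was Bdh1. RNA was sequenced from BAT-LgT cells, a mouse line of brown preadipocytes that SV40 large T antigen made immortal, differentiated in culture to day 7 and labelled WT in genotype. Cells received an inhibitor or none for 1 h and then SR-3420 or none for 3 h. SR-3420 is a ligand of ABHD5 that starts lipolysis by setting the lipase ATGL to work without a hormone signal. Triacsin C inhibits long-chain acyl-CoA synthetases, so fatty acids are not activated to acyl-CoA, and etomoxir inhibits the carnitine palmitoyltransferase CPT1, so acyl-CoA does not enter mitochondria for oxidation.

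The 6 groups were vehicle, labelled DMSO (n = 2), 10 µM SR-3420 (n = 2), 5 µM triacsin C (n = 3), triacsin C with SR-3420 (n = 3), 50 µM etomoxir (n = 3) and etomoxir with SR-3420 (n = 3). The doses are those of the labels. For SR-3420 the study's figure captions name a higher dose than the labels do, and for triacsin C the labels use another spelling. Vehicle samples carry the numbers 2 and 3 and SR-3420 samples the numbers 1 and 3. Total counts per sample ran from 9452861 to 25670624 with a median of 13602886, and the smallest belonged to triacsin C replicate 1 and the largest to etomoxir + SR-3420 replicate 1. The labels number the replicates without saying what they are, and the study describes them as biologically independent experiments. The p-values measure the spread between these samples. The main model has no term for the replicate number, so any spread between experiments is part of that spread. Vehicle and SR-3420 share only the number 3, so a difference between experiments could also enter their comparison. Fits with the replicate number as a block are given as an alternative.

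In fat cells, glyceroneogenesis builds glycerol 3-phosphate from pyruvate rather than from glucose, and this backbone is used to put fatty acids back into triglyceride while lipolysis is running. Pyruvate carboxylase makes oxaloacetate, a phosphoenolpyruvate carboxykinase turns it into phosphoenolpyruvate, and after a run of glycolytic steps in reverse glycerol 3-phosphate dehydrogenase makes the backbone. White fat cells have little glycerol kinase, and glycerol set free by lipolysis leaves fat cells largely through the channel aquaporin 7. Ketone bodies are made mostly in liver, and other tissues burn them through enzymes that turn β-hydroxybutyrate into acetoacetate, acetoacetate into acetoacetyl-CoA and that into acetyl-CoA.

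The identity of the cells was checked against marker genes first. All 8 adipocyte markers (Adipoq, Fabp4, Plin1, Pparg, Lipe, Cidec, Cd36 and Lpl) were abundant in every sample, with Fabp4 the most abundant at 3026 to 9223 CPM (counts scaled to a common library size, with TMM factors). The brown fat markers were low for cells labelled brown adipocytes. Ucp1, the uncoupling protein that defines heat-producing brown fat, reached 0.461 to 3.66 CPM, Dio2 had 0 to 2 reads per sample, and Cox8b was the most abundant of the 8 brown markers in most samples, at up to 178 CPM. Markers of macrophages, endothelium, muscle and liver were low. The macrophage gene Emr1 had 0 to 3 reads and Ptprc 0 to 16, and the whole macrophage list of 4 genes summed to between 3.97 and 17.9 CPM, most of it Cd68. The 3 endothelial markers summed to 0.860 to 3.29 CPM, the 5 muscle markers to 5.18 to 13.4 CPM and the 4 liver markers to 0 to 0.683 CPM, with Ttr at 0 in every sample.

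Summed marker levels differed with SR-3420. The 8 adipocyte markers summed to 20052 and 19145 CPM in vehicle and to 15267 and 14119 in SR-3420. Triacsin C gave 20042, 21064 and 20880, and triacsin C with SR-3420 gave 8303, 8309 and 9169. Etomoxir gave 19518, 18338 and 21619, and etomoxir with SR-3420 gave 10565, 8019 and 13972, so that in each of the 3 settings every sample with SR-3420 lay below every sample without it. The 7 preadipocyte or fibroblast markers, most of whose sum is Col1a1, ran the other way, from 1613 and 1397 CPM in vehicle to 3634 and 2636 in SR-3420. Their sums were 2275, 2018 and 1727 under triacsin C and 4227, 3513 and 2786 with SR-3420 added, against 1988, 1422 and 932 under etomoxir and 4291, 3093 and 2091 with SR-3420 added. Lum, 1 of the 7, had 0 to 12 reads per sample. In these bulk samples fewer differentiated cells and less of an RNA per cell cannot be told apart, and the part of these markers in the results on the 9 genes was not tested.

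**Figure D1:**
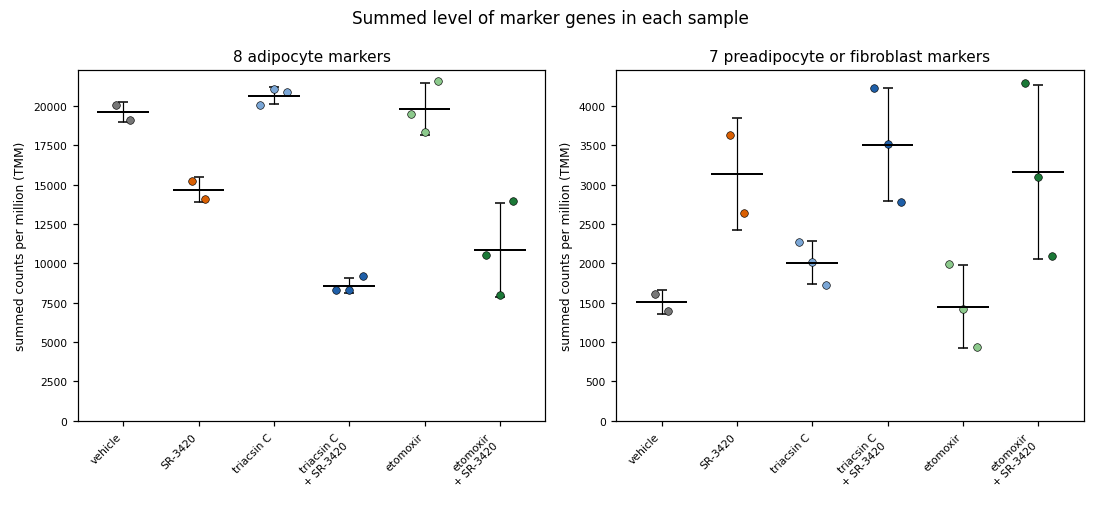
Summed CPM of 8 adipocyte markers (left) and 7 preadipocyte or fibroblast markers (right) in the 16 samples. Points are samples, horizontal lines are group means and bars are 1 SD, and the mean adipocyte sum is 20662 CPM with triacsin C and 8594 CPM with triacsin C and SR-3420.

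Libraries were also compared with each other. For 5 of 16 libraries the closest library by log2 CPM was another of the same group. Vehicle and etomoxir libraries paired with each other, and every etomoxir + SR-3420 library had a triacsin C + SR-3420 library as its closest. Etomoxir + SR-3420 replicate 2 had the lowest value of its group for 6 of the 8 tested genes, as had vehicle replicate 3 in its group of 2. Results on the 8 genes in that arm are given with all samples and then without etomoxir + SR-3420 replicate 2. That library was picked by the values of the same genes, so a call gained without it is no independent test.

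The genes differ widely in level. Per kilobase of counted transcript, Gpd1 was highest in vehicle at 1306 ± 269 CPM per kb (SD, n = 2), followed by Pcx at 877 ± 288, which placed them at ranks 15 and 26 of the 12786 genes. Oxct1 stood at 211 ± 22.5, Acat1 at 142 ± 7.49 and Pck1 at 71.5 ± 18.4 CPM per kb. Aqp7 at 44.5 ± 0.768, Pck2 at a mean of 41.3 and Gpd2 at 32.3 ± 0.829 came last, and the Pck2 samples, at 49.7 and 32.8, overlapped both of those neighbours. The samples of the other neighbours in this order did not overlap in vehicle. In SR-3420 samples Pck1 stood at 148 ± 19.8 CPM per kb, above Acat1 at 88.6 ± 10.5 and near Oxct1 at 140 ± 37.5, whose 2 samples at 113 and 166 lay outside those of Pck1 at 134 and 162.

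**Figure D2:**
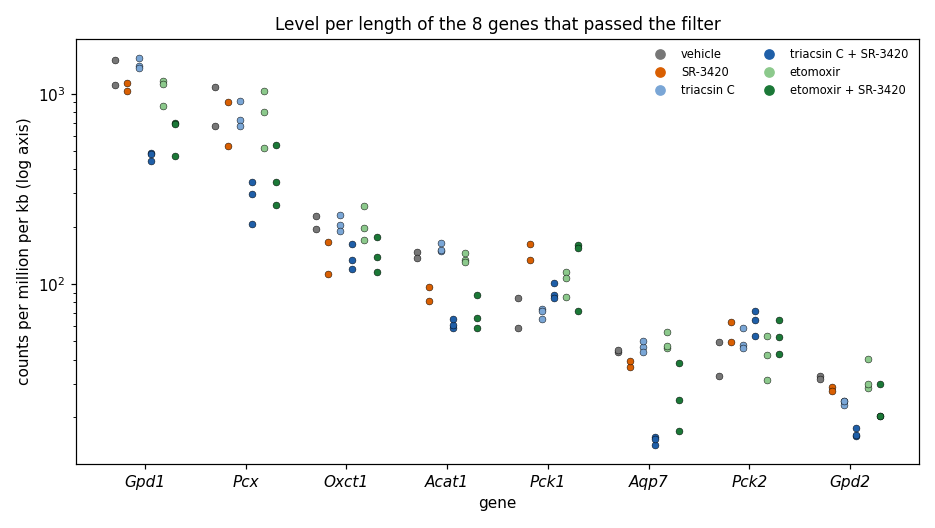
Level of the 8 tested genes in CPM per kb of counted length, on a log axis, with 1 point per sample coloured by group. Gpd1 and Pcx lie above the other genes in vehicle, and the Aqp7 samples of triacsin C with SR-3420, at 14.3 to 15.6 CPM per kb, are the lowest of the plot.

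Bdh1, the mitochondrial β-hydroxybutyrate dehydrogenase (mm9 chr16:31422383-31458987, plus strand), was close to undetected. It had 26 reads in all 16 samples together, 0 in 4 of them and at most 7, in etomoxir + SR-3420 replicate 1. A count of 0 allows up to 3 reads, which in those libraries is 0.219 CPM (vehicle replicate 2), 0.190 CPM (SR-3420 replicate 3), 0.281 CPM (triacsin C + SR-3420 replicate 3) and 0.219 CPM (etomoxir + SR-3420 replicate 2), limits that cover counting error only. Bdh1 did not pass the filter and was not among the 12786 genes tested by edgeR.

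Pck1 encodes the cytosolic phosphoenolpyruvate carboxykinase, the enzyme most often taken as the control point of glyceroneogenesis, and lies on the plus strand at mm9 chr2:172978574-172984754 with 10 exons. Pck2, at chr14:56159103-56168854 on the same strand, also with 10 exons, encodes the mitochondrial form. Pcx, pyruvate carboxylase, spans chr19:4510472-4621752 with 21 exons. Lrfn4 lies inside it on the other strand, but 0 exonic bases are shared. RefSeq promoter windows, from 250 bases before to 50 after the start, matched 7 of the 9 genes, with none for Gpd1 and Acat1. Where a gene had more than 1 window, the one at the start of the transcript in the count table was used. The windows were searched on both strands for TGACGTCA and TTACGTCA (letters of cAMP response elements), AGGTCA (letters that many nuclear receptors bind), DR1 (AGGTCA repeated after any single base, as PPARs with RXRs bind, so that each match also holds the shorter motif), the promoter box CCAAT, the letters TATAAA of a TATA box and the E-box CACGTG. Windows are shown for Pck1, Aqp7 and Pcx, and capitals mark the motifs found. With SR-3420 the Pck1 fold changes lay above 0 and those of the other 2 genes below 0. Pck2 also lay above 0 and Gpd2 and Oxct1 below 0, and their windows are not shown. A link between motifs and the direction of the response was not tested.
Pck1 promoter, GRCm38.p6 chr2:173152823-173153122, plus strand: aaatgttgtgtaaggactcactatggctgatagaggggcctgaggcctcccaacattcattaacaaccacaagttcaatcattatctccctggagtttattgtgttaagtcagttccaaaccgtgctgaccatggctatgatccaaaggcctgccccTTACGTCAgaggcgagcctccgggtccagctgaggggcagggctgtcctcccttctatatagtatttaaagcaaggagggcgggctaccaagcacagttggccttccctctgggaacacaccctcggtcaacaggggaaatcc
Aqp7 promoter, GRCm38.p6 chr4:41048087-41048386, minus strand: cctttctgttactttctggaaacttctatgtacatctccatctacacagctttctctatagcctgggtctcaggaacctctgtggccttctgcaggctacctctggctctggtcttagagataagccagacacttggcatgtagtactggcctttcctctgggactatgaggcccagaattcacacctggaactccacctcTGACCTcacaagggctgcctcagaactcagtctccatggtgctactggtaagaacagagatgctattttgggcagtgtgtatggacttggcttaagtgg
Pcx promoter, GRCm38.p6 chr19:4510222-4510521, plus strand: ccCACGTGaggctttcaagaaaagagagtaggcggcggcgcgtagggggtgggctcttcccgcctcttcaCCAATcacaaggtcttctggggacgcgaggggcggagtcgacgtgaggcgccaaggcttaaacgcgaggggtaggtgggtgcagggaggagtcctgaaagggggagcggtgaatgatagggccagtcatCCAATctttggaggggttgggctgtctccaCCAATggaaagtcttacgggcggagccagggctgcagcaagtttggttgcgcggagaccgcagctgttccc

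Of the 7 windows, that of Pck1 held TTACGTCA, at position -93 with the start base as 0, and 0.499% of all 32851 RefSeq windows hold it. That of Aqp7 held AGGTCA, read on the other strand as TGACCT at position -49, as 16.3% of windows do. Pcx held CCAAT at positions -180, -51 and -21 (37.4% of windows) and CACGTG at -248 (7.15%), and Pck2 held CCAAT at -41. TGACGTCA (1.79% of windows), DR1 (0.0396%) and TATAAA (13.6%) were in none of the 7, and the windows of Gpd2, Oxct1 and Bdh1 held no motif of the list. A match describes letters and was not tested as a site.

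The comparison of SR-3420 with vehicle asked what lipolysis does without an inhibitor. Acat1 was the 1 gene of the 8 that passed the threshold, and it fell. Vehicle samples had 496 and 460 CPM of Acat1 and SR-3420 samples 274 and 324, with no overlap. Its log2 fold change was -0.68 (SE 0.17, adjusted p = 0.0307 from the quasi-likelihood F test of edgeR, adjusted over all tested genes). Acat1 is the mitochondrial thiolase that splits acetoacetyl-CoA into acetyl-CoA, the last step of ketone body use, on the minus strand of mm9 chr9:53388627-53418455 with 12 exons. That made 0 genes higher and 1 lower, while 4.75% of all tested genes were called higher and 2.79% lower. Pck1, Pck2, Gpd2, Aqp7 and Oxct1 did not overlap between these groups either and were not called. With 2 or 3 samples in a group, absence of overlap describes the samples and is no test, here and below. Leaving out any single sample ended the Acat1 call. Its adjusted p was 0.147 without vehicle replicate 2, 0.106 without vehicle replicate 3, 0.227 without SR-3420 replicate 1 and 0.0633 without SR-3420 replicate 3, and it was 0.0593 with no filter on low counts and 0.253 with only these 2 groups fitted, in a range of 0.00225 to 0.253 over the alternatives.

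Pck1 had the largest fold change of the 8 in that comparison and missed the threshold. Its level was 221 and 153 CPM in vehicle and 423 and 349 in SR-3420. Both SR-3420 samples lay above both vehicle samples. The log2 fold change was 1.04 (95% interval 0.38 to 1.71) with adjusted p = 0.0554, and DESeq2's Wald test gave adjusted p = 0.0177, and with the replicate block it was 0.0357, in a range of 0.0177 to 0.327 over the alternatives. Pck2 read 169 and 111 CPM in vehicle against 215 and 169 in SR-3420 (adjusted p = 0.371). Oxct1, which moves coenzyme A from succinyl-CoA to acetoacetate and so commits ketone bodies to oxidation (plus strand of mm9 chr15:3976428-4105344, 17 exons), read 596 and 694 CPM in vehicle against 347 and 509 in SR-3420. The log2 fold change of -0.59 had adjusted p = 0.181, and 0.00908 with the replicate block, in a range of 0.00908 to 0.697. For Pcx, Gpd1, Gpd2 and Aqp7 the log2 fold changes were between -0.29 and -0.20, each with a 95% interval that includes 0. Over the 8 genes the median log2 fold change was -0.25, against -0.0038 over all genes tested. Of the adipocyte markers 1 of 8, Pparg, was called lower, and of the 7 tested brown markers 1, Cox8b (-0.98). The brown list had a median of 0.47 and its other members were not called. Ucp1 (0.84), Cidea (0.76), Elovl3 (0.73), Cox7a1 (0.47) and Ppargc1a (0.20) lay above 0 and Prdm16 (-0.065) below.

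Under triacsin C the question was whether SR-3420 acts when acyl-CoA synthesis is blocked. Here 6 of the 8 genes fell and 0 rose, where 19.7% of all tested genes were called lower and 17.3% higher. Gpd1, the cytosolic glycerol 3-phosphate dehydrogenase that makes the glycerol backbone (plus strand of mm9 chr15:99548024-99555438, 8 exons), read 3889, 4278 and 3812 CPM with triacsin C and 1365, 1347 and 1231 with SR-3420 added. The groups lay far apart. The log2 fold change was -1.60 (SE 0.18, adjusted p = 3.04e-05). Aqp7, the glycerol channel (minus strand of chr4:40980107-40995169, 8 exons), went from 118, 111 and 126 CPM to 39.4, 36.2 and 38.8, a log2 fold change of -1.63 (SE 0.22, adjusted p = 9.95e-05). All 3 samples with SR-3420 were below every sample of the other groups. Acat1 went from 504, 511 and 553 CPM to 197, 205 and 221, a log2 fold change of -1.33 (SE 0.14, adjusted p = 2.03e-05).

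Pcx read 3010, 3774 and 2815 CPM with triacsin C and 1429, 1228 and 858 with SR-3420 added, without overlap. The fall on the log2 scale was -1.45 (SE 0.33, adjusted p = 0.00418). Gpd2, the mitochondrial glycerol 3-phosphate dehydrogenase that passes electrons from glycerol 3-phosphate to the respiratory chain (plus strand of chr2:57090089-57223130, 17 exons), read 139, 134 and 139 CPM and then 91.8, 92.4 and 101. Oxct1 read 625, 583 and 703 CPM and then 366, 409 and 498. These were the smaller falls, -0.53 for Gpd2 (SE 0.16, adjusted p = 0.0204) and -0.59 for Oxct1 (SE 0.20, adjusted p = 0.0378), and they were also the less stable calls. Gpd2 had adjusted p = 0.0742 with no filter on low counts, 0.0509 without triacsin C replicate 1, 0.0538 without triacsin C replicate 3, 0.0606 without triacsin C + SR-3420 replicate 1 and 0.107 without triacsin C + SR-3420 replicate 2, in a range of 0.00295 to 0.107. Oxct1 had 0.0937 with no filter, 0.0716, 0.0545 and 0.116 without triacsin C replicates 1, 2 and 3, and 0.125 and 0.146 without triacsin C + SR-3420 replicates 1 and 2, in a range of 0.000148 to 0.146.

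Both carboxykinases had values above 0 under triacsin C and neither passed the test. Pck1 read 193, 189 and 171 CPM with triacsin C and 266, 229 and 221 with SR-3420 added, so its groups did not overlap. Its log2 fold change was 0.37 (95% interval -0.17 to 0.91, adjusted p = 0.265), and with only these 2 groups fitted the adjusted p was 0.0285, in a range of 0.0285 to 0.463. Pck2 read 162, 199 and 157 CPM and then 247, 219 and 182, with overlap. Its log2 fold change was 0.32 (adjusted p = 0.279, and 0.0468 with the replicate block, in a range of 0.0468 to 0.535). The median over the 8 genes was -0.96 against 0.02 over all genes tested. Beside these falls, 6 of 8 adipocyte markers were called lower, among them Adipoq with a log2 fold change of -1.68 and Cidec with -1.59, and 2 of 6 tested fibroblast markers were called higher. Of 7 tested brown markers 3 were called lower, Cox8b by -1.99, and 1 higher, Prdm16 by 0.74. Cd68, 1 of 2 tested macrophage markers, had -1.29, Kdr, the 1 endothelial marker tested, 0.96, and Des, 1 of 2 tested muscle markers, -1.23, each called. The other macrophage marker, Csf1r, had 0.50 and the other muscle marker, Myod1, 0.84, neither of them called. The part of all these markers in the falls of the enzymes was not tested.

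Under etomoxir, where acyl-CoA is made but mitochondrial entry is blocked, SR-3420 lowered 5 of the 8 genes and raised 0, with 12.8% of all tested genes called lower and 12.5% higher. Acat1 read 448, 440 and 492 CPM with etomoxir and 222, 198 and 296 with SR-3420 added. Its log2 fold change was -0.95 (SE 0.14, adjusted p = 0.000398), so Acat1 was called lower in each of the 3 SR-3420 comparisons. Gpd1 read 3255, 3120 and 2396 CPM and then 1952, 1303 and 1934, and Aqp7 116, 120 and 140 CPM and then 62.2, 42.4 and 96.6. Neither gene overlapped between the groups. Their log2 fold changes were -0.76 (SE 0.18, adjusted p = 0.00758) and -0.90 (SE 0.21, adjusted p = 0.00768). Pcx, at 4296, 3334 and 2146 CPM and then 2222, 1079 and 1424, overlapped, as did Gpd2 at 162, 172 and 231 CPM and then 117, 116 and 171. They passed with log2 fold changes of -1.05 (SE 0.33, adjusted p = 0.0333) and -0.48 (SE 0.16, adjusted p = 0.0417).

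With only the 2 etomoxir groups fitted, Acat1 kept its call (adjusted p = 0.0306) and the others did not, at 0.0817 for Gpd1, 0.0942 for Aqp7, 0.102 for Pcx and 0.202 for Gpd2. Over all alternatives the adjusted p ranged from 3.27e-09 to 0.0306 for Acat1, from 0.000297 to 0.0817 for Gpd1 and from 0.000190 to 0.0942 for Aqp7. Pcx also missed the threshold without etomoxir replicate 1 (0.125) or 2 (0.0812) and without etomoxir + SR-3420 replicate 2 (0.141) or 3 (0.0847), in a range of 0.00113 to 0.141. Gpd2 missed it with no filter (0.0750), without etomoxir replicate 2 (0.0574) or 3 (0.152) and without etomoxir + SR-3420 replicate 1 (0.124) or 2 (0.166), in a range of 0.00428 to 0.202. Gpd1, Aqp7 and Acat1 kept their calls whichever of the 6 samples was left out.

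The Pck1 result under etomoxir changed when 1 library was left out. It read 304, 282 and 225 CPM with etomoxir and 421, 189 and 403 with SR-3420 added. Etomoxir + SR-3420 replicate 2 lay below all 3 etomoxir samples and the other 2 lay above them. With all samples the log2 fold change was 0.32 (adjusted p = 0.380). Without that replicate it was 0.61 (adjusted p = 0.0348, in a range of 0.0348 to 0.742 over the alternatives), and in the same fit Gpd1 had -0.59 (adjusted p = 0.0332), Aqp7 -0.66 (adjusted p = 0.0205) and Acat1 -0.83 (adjusted p = 0.00245). The other 4 genes did not pass in it, with -0.84 for Pcx (0.141), -0.39 for Gpd2 (0.166), -0.50 for Oxct1 (0.188) and 0.35 for Pck2 (0.421). Pck2 read 180, 144 and 107 CPM and then 220, 180 and 145, with adjusted p = 0.297, and 0.0329 with the replicate block, in a range of 0.0329 to 0.618. Oxct1 read 521, 601 and 786 CPM and then 355, 425 and 542. The log2 fold change of -0.53 had adjusted p = 0.0750, which became 0.000659 with the replicate block, 0.0316 without etomoxir + SR-3420 replicate 3 and 0.0481 by DESeq2, in a range of 0.000659 to 0.235. The median over the 8 genes was -0.64 against 0.0094 over all genes tested. Of the adipocyte markers 6 of 8 were called lower, Adipoq with -1.24, and 5 of 6 tested fibroblast markers higher, Col1a1 with 1.27. Of the other markers Cox8b (-1.25, 1 of 7 brown), Des (-1.09, 1 of 2 muscle) and Kdr (1.28, the 1 endothelial marker tested) were called. The brown list had a median of 0.12. Ucp1 (1.11), Cidea (0.37), Cox7a1 (0.18) and Elovl3 (0.12) lay above 0 and Prdm16 (-0.46) and Ppargc1a (-0.36) below, none of them called. The other muscle marker, Myod1, had 1.01 and was not called. The part of the markers in these results was not tested.

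**Figure D3:**
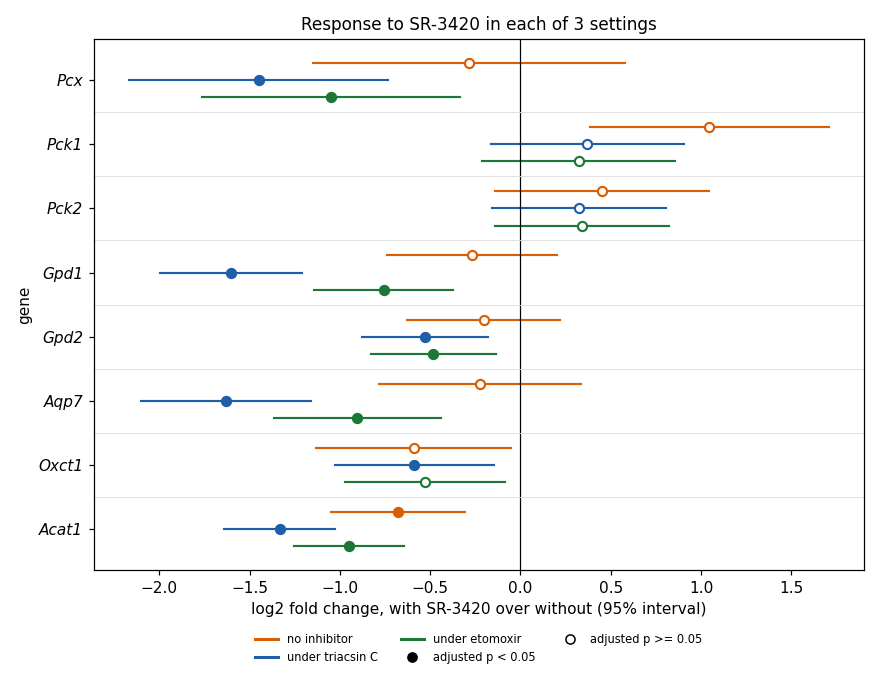
Log2 fold change with SR-3420 over without it, for 8 genes in cells with no inhibitor, under triacsin C and under etomoxir. Lines are 95% intervals and filled points have adjusted p below 0.05, and Pck1 and Pck2 lie above 0 and the other 6 genes below 0 in all 3 settings.

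**Figure D4:**
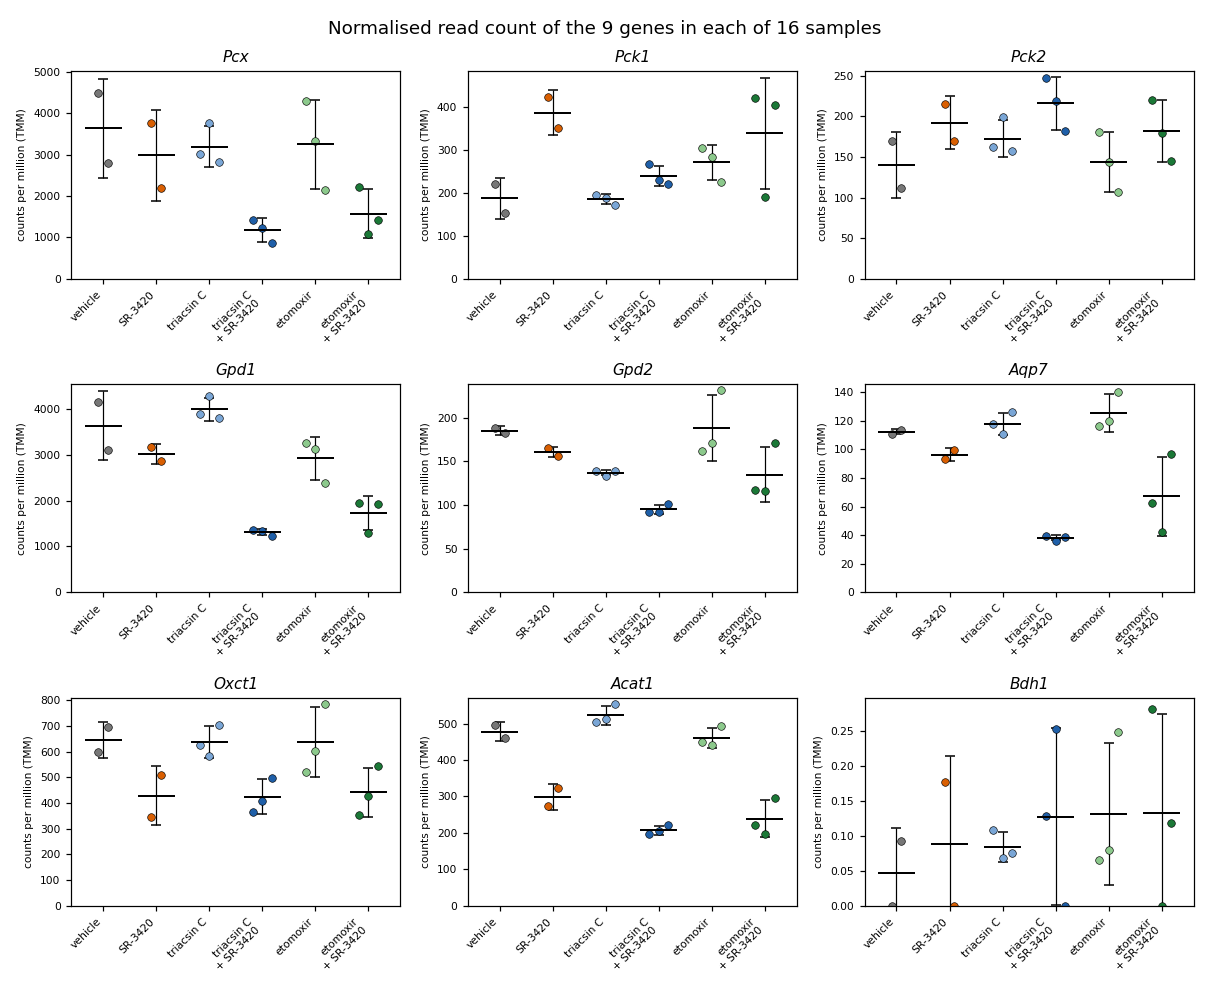
TMM-scaled CPM of the 9 genes in each of the 16 samples, by treatment group. Points are samples, horizontal lines are group means and bars are 1 SD, and the y axes start at 0 and differ between genes. Aqp7 reads 36.2 to 39.4 CPM in triacsin C with SR-3420, against 111 to 126 CPM with triacsin C.

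Whether the inhibitors changed the response was tested as a difference between the 2 log2 fold changes. Under triacsin C the SR-3420 response was more negative than without inhibitor for Gpd1, by -1.33 (SE 0.28, adjusted p = 0.0290), and for Aqp7, by -1.41 (SE 0.34, adjusted p = 0.0468). So 2 of the 8 genes had a lower response and 0 a higher one, with 1.27% of tested genes called lower and 1.24% higher. The difference for Pcx was -1.16 (95% interval -2.28 to -0.045, adjusted p = 0.277), for Acat1 -0.65 (adjusted p = 0.146, and 0.0300 with the replicate block, in a range of 0.0300 to 0.491) and for Pck1 -0.68 (adjusted p = 0.413). Oxct1 gave 0.0044 (95% interval -0.69 to 0.70). Both calls were close to the threshold. Gpd1 passed without vehicle replicate 2 (adjusted p = 0.0441). It did not pass without vehicle replicate 3 (0.176), SR-3420 replicates 1 (0.125) or 3 (0.0538), triacsin C replicates 1 (0.0573), 2 (0.0769) or 3 (0.0595), or triacsin C + SR-3420 replicates 1 (0.0560), 2 (0.0590) or 3 (0.0667), in a range of 0.000463 to 0.176 over the alternatives. Aqp7 did not pass without vehicle replicates 2 (0.116) or 3 (0.195), SR-3420 replicates 1 (0.152) or 3 (0.101), triacsin C replicates 1 (0.0810), 2 (0.0908) or 3 (0.105), or triacsin C + SR-3420 replicates 1 (0.0857), 2 (0.135) or 3 (0.0940), nor with DESeq2 size factors (0.0559) or no filter (0.0926), in a range of 0.00681 to 0.195. The log2 differences themselves stayed between -1.56 and -1.14 for Gpd1 and between -1.45 and -1.30 for Aqp7 when a sample was left out. In the same comparison the 8 adipocyte markers had a median difference of -0.95 against -0.04 over all genes tested, from -1.47 for Cidec to 0.83 for Pparg, and adjusted p from 0.0994 to 0.858. The 7 tested brown markers had a median of -1.01, and adjusted p from 0.0708 to 0.959. Of the 2 tested macrophage markers 1, Cd68, was called lower, by -1.98 (adjusted p = 0.0139). The other, Csf1r, had 0.43 and was not called. The macrophage list of 4 summed to 6.43 and 3.97 CPM in vehicle, 9.90 and 5.90 in SR-3420, 16.2, 17.9 and 16.9 with triacsin C and 8.39, 8.77 and 7.79 with triacsin C and SR-3420, most of it Cd68 in every sample, and Emr1 had 0 to 3 reads. Over the 16 samples Gpd1 had r = 0.971 and Aqp7 r = 0.878 with Adipoq, and the part of the markers in these differences was not tested.

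Neither of the other response differences passed by edgeR for any of the 8 genes with all samples and no replicate block. For etomoxir against no inhibitor, 0 genes were called by edgeR, 0 had an unadjusted p under 0.05 and 0 were called by DESeq2, with 0% of tested genes called higher and 0% lower. Over all genes 307 of 12786 had an unadjusted p under 0.05, and DESeq2 called 3 higher and 4 lower. The estimates ran from -0.76 for Pcx (95% interval -1.88 to 0.35) to 0.063 for Oxct1 (95% interval -0.63 to 0.76). Without etomoxir + SR-3420 replicate 2 they ran from -0.55 for Pcx to 0.088 for Oxct1, each with adjusted p = 1.00. For triacsin C against etomoxir, edgeR called 0 genes, 2 had an unadjusted p under 0.05 and DESeq2 called 1, Gpd1, while 1.52% of tested genes were called higher and 0.774% lower by edgeR. Over all genes 1596 of 12786 had an unadjusted p under 0.05, and DESeq2 called 444 higher and 212 lower of 13339. The Gpd1 difference was -0.85 (adjusted p = 0.122, and 0.0344 by DESeq2). Without etomoxir + SR-3420 replicate 2 it was -1.01 with adjusted p = 0.0423, in a range of 0.0273 (with the replicate block) to 0.274 over the alternatives, and the Aqp7 difference was -0.97 with adjusted p = 0.0544. The other 6 genes had adjusted p of 0.264 or more in that fit. In the same comparison with all samples Cd68, 1 of 2 tested macrophage markers, was called lower (-1.44, adjusted p = 0.0329). The other, Csf1r, had 0.24 and was not called. The 8 adipocyte markers had a median of -0.46 and the 7 tested brown markers one of -0.73, against -0.06 over all genes tested, and the part of the markers was not tested.

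The inhibitors alone asked whether blocking fatty acid use changes these genes in resting cells. Triacsin C against vehicle gave 0 calls among the 8 by edgeR, 1 unadjusted p under 0.05 and 0 calls by DESeq2, with 4.77% of tested genes called higher and 6.94% lower by edgeR. Over all genes 3103 of 12786 had an unadjusted p under 0.05, and DESeq2 called 828 higher and 1151 lower of 13339. Of the 2 tested macrophage markers Cd68 rose, by 1.92 (adjusted p = 0.000366), and Csf1r had 0.50, not called. Of the 7 tested brown markers Prdm16 (-2.14) and Ppargc1a (-1.04) fell. The other 5 were not called and lay above 0, Elovl3 (0.73), Cox7a1 (0.67), Ucp1 (0.59), Cox8b (0.41) and Cidea (0.32). The brown list had a median of 0.41. Of 8 adipocyte markers 1, Pparg, fell (-1.48, adjusted p = 0.000182). The gene with an unadjusted p under 0.05 was Gpd2, at 189 and 182 CPM in vehicle and 139, 134 and 139 with triacsin C, without overlap. Its log2 fold change was -0.43 (adjusted p = 0.146), and with only these 2 groups fitted the adjusted p was 0.0383, in a range of 0.0383 to 0.363. Etomoxir against vehicle gave 0 calls by edgeR, 0 unadjusted p under 0.05 and 0 calls by DESeq2, with 0.0156% of tested genes called higher and 0.00782% lower by edgeR, while 283 of 12786 had an unadjusted p under 0.05 and DESeq2 called 7 higher and 10 lower of 11165. The largest estimate there was that of Pck1, 0.53 (95% interval -0.076 to 1.14), whose 3 etomoxir samples all lay above both vehicle samples.

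In cells that also had SR-3420, triacsin C lowered 3 of the 8 genes and raised 0, with 3.55% of tested genes called lower and 1.02% higher. Gpd1 at 3171 and 2865 CPM in SR-3420 compared with 1365, 1347 and 1231 in triacsin C with SR-3420, a log2 fold change of -1.20 (SE 0.20, adjusted p = 0.00493). Aqp7, at 93.0 and 99.5 CPM against 39.4, 36.2 and 38.8, had -1.33 (SE 0.24, adjusted p = 0.00704), and Gpd2, at 165 and 157 CPM against 91.8, 92.4 and 101, had -0.76 (SE 0.18, adjusted p = 0.0274). None of the 3 overlapped between these groups of 2 and 3 samples, and the share of all tested genes without overlap is not given here. Without SR-3420 replicate 1 all 3 calls were lost, with adjusted p = 0.0711 for Gpd1 (range over the alternatives 9.24e-07 to 0.0711), 0.0711 for Aqp7 (range 3.51e-05 to 0.0711) and 0.240 for Gpd2. The Gpd2 call was also lost without SR-3420 replicate 3 (0.0761), without triacsin C + SR-3420 replicates 1, 2 or 3 (0.0848, 0.116 and 0.0720), with no filter (0.0521) and with only these groups fitted (0.0758), in a range of 0.00396 to 0.240. Pcx had -1.35 with adjusted p = 0.0512, which was 0.0472 without SR-3420 replicate 3, 0.0360 with no filter, 0.00809 by DESeq2 and 0.00160 with the replicate block, in a range of 0.00160 to 0.541, and Acat1 had -0.53 with adjusted p = 0.0744 (0.0258 by DESeq2, 0.0126 with the replicate block, range 0.0126 to 0.235). Pck1 had -0.70 with adjusted p = 0.180. Of the adipocyte markers 4 of 8 were called lower in the same comparison, among them Adipoq with -1.04, and 2 of 7 tested brown markers, Prdm16 (-1.34) and Ppargc1a, and their part in these falls was not tested.

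Etomoxir added to SR-3420 gave 0 calls among the 8 by edgeR, 3 unadjusted p under 0.05 and 1 call by DESeq2, with 0% of tested genes called higher and 0.00782% lower by edgeR. Over all genes 1279 of 12786 had an unadjusted p under 0.05, DESeq2 called 8 higher and 81 lower of 11890, and the replicate block called 761 higher and 1077 lower. The DESeq2 call was Gpd1, with an edgeR log2 fold change of -0.80 (adjusted p = 0.245, 0.0239 by DESeq2 and 0.0290 with the replicate block, in a range of 0.0239 to 1.00 over the alternatives). Pcx had -0.92 (95% interval -1.70 to -0.14) and Aqp7 -0.52 (95% interval -1.03 to -0.013), with adjusted p = 0.450 and 0.482. With the replicate block Pcx had 0.0335, in a range of 0.0335 to 1.00. Without etomoxir + SR-3420 replicate 2 the values ran from -0.71 for Pcx to 0.094 for Pck1, with Gpd1 at -0.63 and no adjusted p under 0.760. With all samples the 8 adipocyte markers had a median of -0.54, from -0.94 for Cidec to 0.071 for Cd36, with Adipoq at -0.83. The 7 tested brown markers had a median of -0.56. In both lists 0 were called, and the part of the markers was not tested. These comparisons share the SR-3420 or the vehicle samples with others, so their values are set side by side and no overlap between them is counted.

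**Figure D5:**
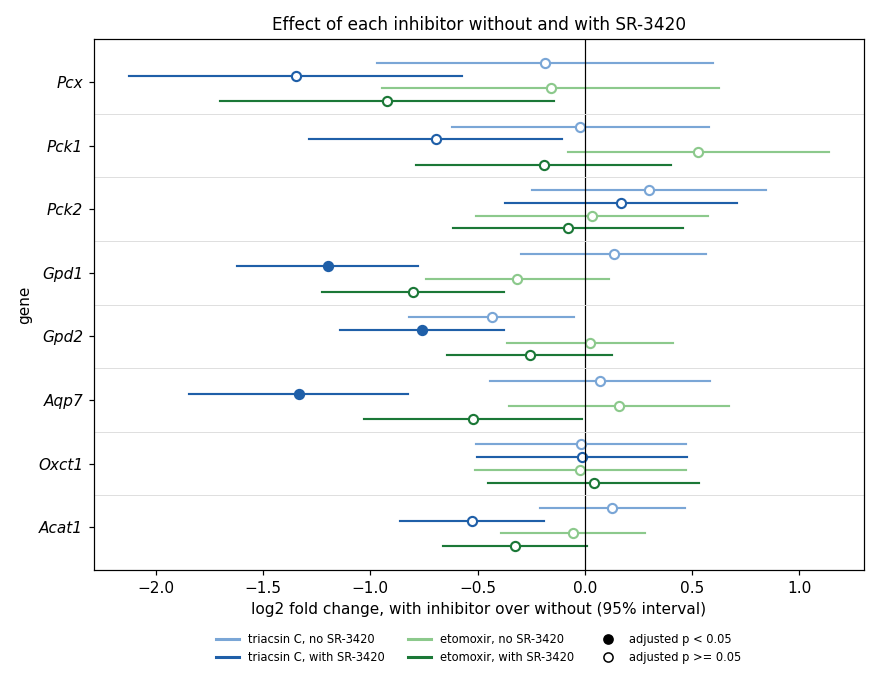
Log2 fold change with an inhibitor over without it, for 8 genes, in cells without and with SR-3420. Lines are 95% intervals and filled points have adjusted p below 0.05, and the filled points are Gpd1, Gpd2 and Aqp7 for triacsin C with SR-3420.

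Ratios taken within a sample do not depend on the scaling between samples. Per kb, Pck1 was 1.70 and 1.78 times Pck2 in vehicle and 2.56 and 2.69 times in SR-3420. With triacsin C the ratio was 1.55, 1.23 and 1.42, and with SR-3420 added it lay between 1.36 and 1.58. Etomoxir gave 2.19, 2.55 and 2.74, above every vehicle and triacsin C sample, and etomoxir with SR-3420 gave 2.48, 1.37 and 3.61. For the glycerol 3-phosphate dehydrogenases, Gpd1 was 45.5 and 35.2 times Gpd2 in vehicle and 39.6 and 37.7 times in SR-3420. It was 57.8, 66.0 and 56.6 times with triacsin C and 30.7, 30.1 and 25.1 times with triacsin C and SR-3420. Etomoxir gave 41.3, 37.5 and 21.4, and etomoxir with SR-3420 gave 34.4, 23.1 and 23.4. The samples with triacsin C alone were the highest of all 16. No test was run on the ratios.

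For the 6 genes called in at least 1 comparison, the genes of most similar pattern were found by Pearson correlation of log2 CPM over the 16 samples. Pcx ran with C3 (r = 0.993), Hectd3 (r = 0.991) and the lipid droplet coat gene Plin1 (r = 0.987). Gpd1 ran with Acbd4 (r = 0.987), Uck1 (r = 0.986) and Qdpr (r = 0.981), and Gpd2 with, among others, the adiponectin receptor gene Adipor2 (r = 0.963) and Rnf125 (r = 0.960). For Aqp7 they were 1600014C10Rik (r = 0.980), Apmap (r = 0.972) and Aplp2 (r = 0.971). Acat1 had Echs1, an enzyme of β-oxidation, at r = 0.996, then Ces1d (r = 0.993) and Cd1d1 (r = 0.991), and Oxct1 had Lyrm2 (r = 0.986), Etfa (r = 0.981) and the complex I gene Ndufs1 (r = 0.981). The 16 samples share their treatment groups, so these correlations describe the samples and carry no test.

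Around these enzymes, 33 genes of the glycerol pathway were listed and 29 could be tested. Under SR-3420 alone 3 were called higher and 2 lower, against 4.75% and 2.79% of all tested genes. Pdk4, a kinase that switches off pyruvate dehydrogenase, had a log2 fold change of 2.25 (adjusted p = 4.28e-05), followed by Ldha (0.91) and Got1 (0.87). Those lower were Gpam, the mitochondrial acyltransferase that adds the first fatty acid to glycerol 3-phosphate (-0.85, adjusted p = 0.0235), and Gpd1l, a relative of Gpd1 (-0.62, adjusted p = 0.0156). With triacsin C, SR-3420 raised 4 and lowered 11, against 17.3% and 19.7% of all tested genes. Got1 (1.25), Pdk4 (1.19) and Slc25a12 (0.70) rose most, and both subunits of the mitochondrial pyruvate carrier, Mpc1 (-1.33) and Mpc2 (-1.24), and the citrate carrier Slc25a1 (-1.31) fell most. Under etomoxir 4 rose and 7 fell, against 12.5% and 12.8% of all tested genes, with Pdk4 at 1.61 and Pgk1 at 1.01 among those that rose and Gpam (-1.37), Aqp11 (-1.09) and Slc25a1 (-1.05) among those that fell. Aqp11 was scarce, at 1.14 to 4.17 CPM. Glycerol kinase, listed as Gyk and named after its values were seen, had 9.16 to 46.6 CPM and its log2 fold change under triacsin C was 0.56 (adjusted p = 0.446).

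Triacsin C by itself raised 1 gene of the glycerol list, Pdk4 (1.16), and lowered 3, Gpam (-1.07), Slc25a12 (-0.56) and Gpd1l (-0.52), where 4.77% of all tested genes were called higher and 6.94% lower. Added to SR-3420 it raised 1, Got1 (0.78), and lowered 5, among them Gpam (-1.34), Agpat9 (-0.92) and Gpd1l (-0.59), where 1.02% were called higher and 3.55% lower. The SR-3420 response was lower under triacsin C than without inhibitor for Pdk4 (-1.07, adjusted p = 0.0486) and Mpc1 (-0.93, adjusted p = 0.0302), 2 of 29 against 1.27% of all tested genes.

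Of 24 listed genes around ketone bodies, 18 could be tested and Hmgcs1 was not analysed here. SR-3420 alone raised 1, the lactate carrier Slc16a3 (log2 fold change 2.26, adjusted p = 0.000633), and lowered 2, Acss2 (-0.74) and the cytosolic thiolase Acat2 (-0.71), beside 4.75% and 2.79% over all tested genes. Under triacsin C it raised 2, Slc16a3 (1.48) and the dehydrogenase Bdh2 (0.64), and lowered 10, beside 17.3% and 19.7% over all tested genes. The 3 lowest were Hcar1, the lactate receptor of fat cells (-1.52), Hadhb, the β subunit of the mitochondrial trifunctional protein (-1.32), and Acss2 (-1.11). Under etomoxir 3 rose, Slc16a3 (2.81), Bdh2 (0.92) and the monocarboxylate carrier Slc16a1 (0.75), and 7 fell, among them Hcar1 (-1.37), Acss2 (-0.98) and Auh (-0.74), beside 12.5% and 12.8%. Bdh2 was scarce, at 1.90 to 5.83 CPM.

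Triacsin C alone raised Slc16a1 (0.87) and lowered Hcar1 (-0.77) in the ketone list, beside 4.77% and 6.94% over all tested genes. Added to SR-3420 it raised 0 and lowered 5, led by Hcar1 (-1.57), Hcar2 (-0.89) and Acss2 (-0.81), beside 1.02% and 3.55%. The response of Hadha, the α subunit of the trifunctional protein, was lower under triacsin C than without inhibitor (-0.70, adjusted p = 0.0432), the 1 gene of 18, beside 1.27% over all tested genes.

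Regulators known for the Pck1 gene were listed as well, 27 in all with 25 tested. SR-3420 raised Atf3, a stress-induced repressor of the ATF/CREB family, by 3.64 on the log2 scale without inhibitor, by 2.20 under triacsin C and by 3.34 under etomoxir, and the nuclear receptor Nr4a1 by 2.04, 1.84 and 2.04. The other called genes without inhibitor were Atf4 (0.65) and Pparg (-0.82, adjusted p = 0.0327), so that 3 were higher and 1 lower where 4.75% and 2.79% of all tested genes were. Under triacsin C 4 were higher and 4 lower, where 17.3% and 19.7% of all tested genes were, the lower ones led by Ppara (-1.03), Cebpa (-1.01) and Irs2 (-0.98), and Pparg, named there after its value was seen, had 0.013 (adjusted p = 0.959). Under etomoxir 4 were higher and 4 lower, where 12.5% and 12.8% of all tested genes were, among them Cebpd (0.80), Rxra (-0.91), Pparg (-0.79) and Insr (-0.75). Triacsin C alone raised 3, Atf3 (2.61), Cebpd (0.90) and Atf4 (0.67), and lowered 7, with Insr (-1.83), Rxra (-1.55) and Pparg (-1.48) the lowest (4.77% higher and 6.94% lower over all tested genes), where Pck1 stood at 184 ± 11.6 CPM (SD, n = 3) against 187 ± 48.0 (SD, n = 2) in vehicle. Added to SR-3420, triacsin C raised 2, Atf3 (1.16) and Atf4 (0.77), and lowered 6, led by the coactivator genes Ppargc1b (-2.50) and Ppargc1a (-1.30) with Ppara (-2.30), against 1.02% and 3.55% of all tested genes. The genes called for etomoxir against vehicle, 2 higher and 1 lower in the whole table, and for etomoxir added to SR-3420, 1 lower, held no gene of the 3 lists. For response differences, Ppara (-1.47) and Atf3 (-1.45) were lower under triacsin C than without inhibitor, and against etomoxir Insr was higher (1.01) and Atf3 lower (-1.15), beside 1.27% of all tested genes called lower in the first and 1.52% higher and 0.774% lower in the second.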

How the data were processed

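Total RNA of 16 samples in 6 groups was the starting material of the sequenced cDNA libraries. The authors deposited raw counts per gene, which according to the submitters' processing notes and the study's methods came from reads aligned to mm9 with STAR 2.4.2a, reduced with HOMER to 1 read per position per length and counted with iRNA-seq 1.1. Whether reads were counted by strand is not given in the sources used here. All 16 per-sample columns were used and 0 were left out. Total counts ran from 9452861 to 25670624. The floor of 3 counts covers counting error only. In R 4.3.3 with edgeR 4.0.16, counts were scaled by TMM, filtered with filterByExpr by group and fitted by the quasi-likelihood method in a single model with 6 group means, and p-values were adjusted by Benjamini-Hochberg over 12786 genes. Genes were called at an adjusted p under 0.05. SE is the log2 fold change over the root of F, and intervals are 95% intervals with 13.3 degrees of freedom. The code was tested on simulated counts drawn independently for each sample, without a replicate effect, which checks the code and not the spread in these data. Alternatives were DESeq2 size factors, the Wald test of DESeq2 1.42.0, no filter, at least 10 counts in every sample, only the groups compared, the replicate number as a block, each sample left out in turn, and a log2 fold change of at least 1 in size. Where a sample left out left its group with 1, that sample was assumed to vary like the other groups. Log2 CPM used a prior count of 2. Genes of similar pattern were the 3 with the highest r among tested genes with a mean of at least 5 CPM. From each pathway list, at most 3 called genes per direction and comparison were named, by size of log2 fold change, and markers were named by list. The members and lists were chosen with earlier results of these data known. Promoter windows, from RefSeq, were read with Python 3.11.15, and plots were drawn with matplotlib 3.10.9.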

Additional observations from a re-analysis of the deposited data

Results flagged for a closer look

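A difference between groups singled out 2 genes. The log2 response to SR-3420 was lower under triacsin C than without inhibitor by -1.41 for Aqp7 and by -1.33 for Gpd1, each by a test of the difference itself (adjusted p = 0.0468 and 0.0290), where 1.27% of tested genes were called lower. With 1 of 10 samples left out in turn, Aqp7 passed in 0 fits (adjusted p from 0.0810 to 0.195) and Gpd1 in 1 (from 0.0441 to 0.176). The 8 adipocyte markers had a median difference of -0.95 in the same comparison, with adjusted p from 0.0994 to 0.858. Of the 2 tested macrophage markers Cd68 was called lower by -1.98 and Csf1r had 0.43, not called. The part of these markers in the difference was not tested.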

How the results depend on the processing

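Over 186 values from alternatives with all samples, 153 kept their side of the threshold, 13 lost their call, 20 gained one and 0 reversed; of 190 with 1 sample left out, 139 kept it, 47 lost, 4 gained and 0 reversed. For SR-3420 against vehicle, 1 gene was called, against 2 by DESeq2, 3 with the replicate block, and 0 with no filter, with only the groups compared, with a log2 fold change of at least 1, and with any sample left out (0 to 0). Under triacsin C the 6 calls stayed within 1.5 times, from 4 to 6 with a sample left out. Under etomoxir the 5 calls became 1 with only the groups compared and 1 with a log2 fold change of at least 1, and 3 to 5 with a sample left out. Triacsin C against vehicle went from 0 to 1 with only the groups compared. Triacsin C added to SR-3420 went from 3 to 5 by DESeq2 and 5 with the replicate block, and to 0 to 3 with a sample left out. Etomoxir added to SR-3420 went from 0 to 1 by DESeq2 and 2 with the replicate block. The response difference of triacsin C against none went from 2 to 1 with DESeq2 size factors and 1 with no filter, and to 0 to 1 with a sample left out, and that of triacsin C against etomoxir from 0 to 1 by DESeq2, 1 with the replicate block, and 0 to 1 with a sample left out. Fitting only the groups compared, or leaving out a sample, uses fewer samples, and for the other alternatives the cause was not tested. The 186 and 190 values cover results called in the single model or in at least 1 alternative. They hold no value for a log2 fold change of at least 1.

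The replicate block raised the calls over all genes, for SR-3420 against vehicle from 607 higher and 357 lower to 1423 and 1015, and for etomoxir added to SR-3420 from 0 and 1 to 761 and 1077. The block took triacsin C against vehicle from 610 and 887 to 1530 and 1542. It took SR-3420 under triacsin C from 2208 and 2514 to 3515 and 3670, under etomoxir from 1597 and 1637 to 2897 and 2879, triacsin C added to SR-3420 from 131 and 454 to 1277 and 1731 (462 and 755 of 11890 by DESeq2), and the response difference of triacsin C from 158 and 163 to 737 and 932 against none and from 194 and 99 to 634 and 421 against etomoxir. With only the groups compared, SR-3420 against vehicle had 45 higher and 1 lower, and its response under etomoxir 620 and 585. Triacsin C against vehicle then had 471 and 1004, and triacsin C added to SR-3420 9 and 69. Leaving out any 1 sample lowered the calls over all genes for SR-3420 against vehicle and for triacsin C added to SR-3420. It did so for the response difference of triacsin C against none as well. Without triacsin C + SR-3420 replicate 3, triacsin C added to SR-3420 had 41 and 172 and that difference 86 and 74. With no filter SR-3420 against vehicle had 490 and 210 of 18777 and the response difference of triacsin C against none 88 and 75. The labels do not say that equal numbers belong together. Of 35 same-numbered pairs, 27 had deviations from the group mean correlated at r over 0.1, from -0.286 to 0.827 with a median of 0.507, against a median of -0.29 for other numbers, and 11 of 16 samples were closest to one of their own number. The other 8 pairs each held triacsin C replicate 1 (4 pairs) or etomoxir + SR-3420 replicate 2 (4 pairs). Deviations from a group mean sum to 0 within the group. The median for other numbers is therefore not independent of that for same-numbered pairs. Bdh1 had 26 reads in all and was not among the 12786 genes tested by edgeR.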
